A study of Homo sapiens with 9 samples.

Results

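The genes described here are the E2 ubiquitin-conjugating enzymes, the family whose human symbols start with UBE2 followed by a letter. Its members on the array were found by gene name alone: every non-control probe that the scanner files name in this way was kept, which gave 53 probes for 42 gene names among the 42405 non-control probes and 34623 gene names of the array. All 42 names were found in RefSeq, where 35 are protein coding and 7 are pseudogenes. Probe names differ from RefSeq symbols for 2 of them. The gene called UBE2CBP on the array is now UBE3D, a protein that binds E2 enzymes, and UBE2Q2P3 is now a synonym of UBE2Q2P2, so the probes of those names belong to 1 gene in RefSeq.

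RNA came from NT2 cells, also written hNT2, a human embryonal carcinoma line that turns towards neuron-like cells when given retinoic acid. All 3 groups were kept for 4 days (96 h) in differentiation medium with 10 µM retinoic acid. Control cultures received nothing more, 1 group received 1 µM paraoxon and 1 group received 5 µM mipafox. Both agents are organophosphorus compounds that inhibit serine esterases. Each group has 3 arrays, called A, B and C, and the same 3 control arrays serve both treatments. The series' design text calls the replicates biological and the study's methods call them technical, so the p-values below may measure only technical spread.

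Ubiquitin is passed along a relay. An E1 enzyme activates it, an E2 enzyme receives it on a cysteine, and an E3 ligase brings the charged E2 to the protein to be marked. The E2 largely decides what is attached, whether a single ubiquitin, a chain of a given linkage or a relative such as SUMO, NEDD8, ISG15 or FAT10. In dividing and differentiating cells these marks time the destruction of cell cycle proteins, clear misfolded proteins and call repair factors to damaged DNA.

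The probes that carry most of what follows are shown by their sequences, as the scanner files give them 5′ to 3′. The pair for UBE2Z is shown because its probes gave different results, and the pair for the UBE2Q2 pseudogenes because it held the highest values against control. The files place the probes on the plus strand of hg19, at chr17:47004420-47004479 for the upstream UBE2Z probe, chr17:47006292-47006351 for the downstream one, chr15:82707625-82707684 for UBE2Q2P2 and chr15:83084398-83084457 for UBE2Q2P3. The downstream UBE2Z probe is given by its first 30 bases, and capitals mark a run of 15 bases that the UBE2Q2P3 probe shares with 1 other probe of the array.
UBE2Z A_33_P3390521: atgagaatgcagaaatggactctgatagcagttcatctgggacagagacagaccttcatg
UBE2Z A_23_P83438: aatcttgagttgaggaaatatatgcacagg
UBE2Q2P2 A_33_P3342992: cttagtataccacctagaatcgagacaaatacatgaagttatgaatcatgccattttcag
UBE2Q2P3 A_33_P3382769: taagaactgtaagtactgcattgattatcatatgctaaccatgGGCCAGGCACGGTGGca

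The values below are normalized log2 signals, the log2 of an array's processed signal after subtraction of the log2 of that array's 75th percentile, so that 0 is the brightness of the 75th percentile and a difference of 1 is a doubling. Signals of different probes are not comparable as levels, since each probe binds its target with its own strength. Of the 2 slides, the first carried control A, B and C beside mipafox A and the second paraoxon A, B and C beside mipafox B and C. No slide therefore held both paraoxon and control. Between 69.6% (paraoxon C) and 76.6% (control B) of the spots of an array were well above background. Of the markers checked, 10 of 10 embryonal carcinoma genes on the array were above background on all arrays, as were 5 of 8 neuron genes and 9 of 10 retinoic acid response genes. So were 5 of 6 neural progenitor genes, 3 of 5 glia genes, 2 of 5 endoderm genes, 4 of 6 fibroblast genes and 3 of 4 blood genes. GFAP of the glia list and HBB of the blood list were above background on no array.

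E2 transcripts were seen almost throughout. Of the 53 probes, 51 were above background on all 9 arrays, 1 of the 3 UBE2CBP probes was above it on 8, and the only probe of UBE2U was not well above background on any array. None was saturated. That left 52 probes of 41 names for testing, among 29134 tested probes in all. By name, 32 genes have 1 probe, 9 have 2 and UBE2CBP has 3.

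No E2 probe passed the test in any comparison. With limma and Benjamini-Hochberg adjustment over all probes tested, 0 of 52 reached an adjusted p under 0.05 with a log2 fold change beyond 1 in paraoxon against control, in mipafox against control or in paraoxon against mipafox, where 0% of all probes were called as well. The smallest adjusted p of an E2 probe by limma was 0.0764 under paraoxon and 0.473 under mipafox. At an unadjusted p under 0.05, limma gave 5 of 52 E2 probes under paraoxon, or 9.62%, beside 13.3% of all probes. Under mipafox it gave 4 of 52, or 7.69%, beside 6.96% of all. Both shares lie near or below the background of the array. In paraoxon against mipafox the count was 2 of 52, beside 4.02% of all probes.

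Most of the family lay close to control. Under paraoxon 35 of 52 probes were within 0.25 of control on the log2 scale and 5 were more than 0.5 away, and under mipafox these counts were 38 and 4. The difference was smaller than its own standard error for 30 probes in each treatment. The median log2 fold change of the E2 probes was −0.067 under paraoxon and −0.060 under mipafox, where that of all tested probes was 0.012 and 0.00099. Values above control were found for 20 probes under paraoxon, or 38.5% where all probes gave 51.9%, and for 21 under mipafox, or 40.4% where all probes gave 50.2%. The E2 probes were thus somewhat more often below control than above it, by small amounts, and this lean was not tested. Within slide 1, where mipafox A and control can be compared directly, 26 E2 probes were higher and 26 lower. Their median difference was 0.0011 where all tested probes gave 0.061, so the E2 median again lay below that of all probes. This comparison rests on 1 mipafox array.

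UBE2Z stands apart in the family, through 1 of its 2 probes. The enzyme is an unusual E2 that takes ubiquitin, or the ubiquitin-like protein FAT10, from the E1 enzyme UBA6. The probes lie 1872 bases apart on the transcript, at positions 1123 and 2995, and 1872 bases apart in the genome, so that no intron separates them on the files' coordinates. Whether either lies in the coding part or in the 3′ UTR was not analysed here, as no annotation of hg19 was used.

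The upstream probe, A_33_P3390521, read −2.51, −2.60 and −2.53 on control arrays A, B and C. It read −3.61, −3.54 and −4.52 on the paraoxon arrays, and −3.22, −3.64 and −3.40 on the mipafox arrays. Every treated array was below every control array, paraoxon C lay lowest, and the paraoxon and mipafox arrays overlapped. The probe was above background on all 9 arrays, but its paraoxon C value came close to those of dim probes such as UBE2QL1. Paraoxon C was also the array with the lowest share of spots well above background (69.6%). The means were −2.54 ± 0.05 in control, −3.89 ± 0.55 with paraoxon and −3.42 ± 0.21 with mipafox (SD, n = 3 each).

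Against control the upstream probe was lower by 1.35 log2 units under paraoxon, a log2 fold change of −1.35 (SE 0.25, 95% interval −1.91 to −0.78), which is 39.3% of the control signal. Its p by limma was 0.000411 before adjustment and 0.0764 after, so it missed the limit of 0.05. It is the 1 E2 probe with an unadjusted p under 0.05 and a change beyond 1, a share of 1.92% where all probes gave 2.19%. Under mipafox no E2 probe met both limits, where 0.844% of all did. For the upstream probe the mipafox log2 fold change was −0.88 (SE 0.25, 95% interval −1.44 to −0.31), or 54.5% of control, with a limma p of 0.00653 before adjustment and 0.473 after.

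The call on this probe depended on how the arrays were weighted. With weights per array estimated by limma, its log2 fold change was −1.10 under paraoxon, with an adjusted p of 0.00306, and −1.002 under mipafox, with an adjusted p of 0.00684. Both then pass, in a fit that calls 671 and 800 probes where the unweighted fit calls 0, or 2.3% and 2.75% of those tested. The weights are estimated gene by gene and depend on the order of the probes, so these counts can differ between orders. The mipafox value passes the fold limit only narrowly. Over the other settings, with no array left out of a group, the adjusted p by limma ran from 0.0557 to 0.613 under paraoxon and from 0.339 to 0.850 under mipafox, highest with slide as a block in both. With an array left out it ran from 0.0519 to 0.302 under paraoxon. Without paraoxon C the difference was −1.03, and in that fit its adjusted p by limma was 0.235. With normexp background correction the upstream probe stood at −0.92 under paraoxon, short of the fold limit, and at −0.62 under mipafox. With the authors' values it stood at −1.01 and −0.68.

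Values within a slide were measured for UBE2Z as well. On slide 1 mipafox A was 0.68 below the mean of the 3 control arrays, whose SD was 0.05. On slide 2 the difference of the paraoxon arrays from mipafox B and C was −0.37, and between slides mipafox B and C differed from mipafox A by −0.30. With slide as a block the log2 fold change of the upstream probe was −1.05 under paraoxon and −0.68 under mipafox. Because paraoxon and control shared no slide, that first value rests on the mipafox arrays alone to link the slides.

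The downstream probe, A_23_P83438, read 1.04, 1.26 and 1.49 in control, 1.12, 1.62 and 1.52 with paraoxon, and 1.00, 1.02 and 1.49 with mipafox. All 3 groups overlapped. Its log2 fold change was 0.15 under paraoxon (SE 0.20, 95% interval −0.30 to 0.61) and −0.10 under mipafox (SE 0.20, 95% interval −0.56 to 0.36), with adjusted p by limma of 0.822 and 0.972. The lower end of the paraoxon interval lies above the −1.35 of the upstream probe. The sign of the paraoxon value turned with slide as a block (−0.10) and with array weights (−0.07).

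On each array the scaling cancels in the upstream signal minus the downstream signal, but background does not. This difference was −3.55, −3.85 and −4.03 in control, −4.73, −5.16 and −6.04 with paraoxon, and −4.22, −4.66 and −4.89 with mipafox. Every treated array lay below every control array. Only changes of this difference are readable, not its size. Over the 9 arrays Pearson's r between the probes was −0.25, a description of arrays that share slides and treatments.

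Under paraoxon a gap of this size between probes of 1 gene was found for no other E2 name. How common such gaps are over all genes of the array was not measured. For 10 genes, 2 or 3 probes on the same transcript were tested, which makes 12 pairs. Under paraoxon the upstream minus the downstream log2 fold change was −1.50 for UBE2Z, and the next were −0.58 for UBE2CBP and −0.56 for UBE2V1. Under mipafox the gaps were closer, −0.78 for UBE2Z beside −0.70 for UBE2CBP and −0.54 for UBE2V1. Both UBE2CBP gaps rest on its most upstream probe, which was dim, with a control mean of −4.63, and above background on 8 arrays. With each gene's widest pair taken, the median size of the gap under paraoxon was 0.30. Both probes of a pair were on the same side of control in 7 of 12 pairs under paraoxon and in 8 of 12 under mipafox. Pearson's r between probes of a pair over the 9 arrays ran from −0.32 for UBE2D3 to 0.92 for UBE2E3, with a median of 0.41.

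UBE2M, UBE2F and UBE2L6 carry relatives of ubiquitin, and none of these had an unadjusted p under 0.05 in either treatment. UBE2M, which loads NEDD8 onto cullins, read −0.01, −0.27 and −0.44 in control, −0.18, −0.70 and −0.38 with paraoxon, and −0.40, −0.13 and −0.28 with mipafox. Its groups overlapped, with log2 fold changes of −0.18 (SE 0.18) under paraoxon and −0.03 (SE 0.18) under mipafox. UBE2F is the other NEDD8 E2, and its paraoxon value was 0.040 (SE 0.20).

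UBE2L6 is the interferon-induced E2 for ISG15. It read 0.43, 0.35 and 0.46 in control, 0.19, 0.38 and −0.57 with paraoxon, and 0.24, −0.13 and 0.18 with mipafox. The mipafox arrays lay below all control arrays, and the paraoxon arrays overlapped them because of paraoxon B. Its log2 fold changes were −0.41 (SE 0.24, 95% interval −0.95 to 0.12) and −0.32 (SE 0.24, 95% interval −0.85 to 0.21). Without paraoxon C the paraoxon value was −0.13, and with slide as a block the values were −0.20 and −0.18. Among the E2 probes UBE2L6 was the most like the upstream UBE2Z probe over the 9 arrays, with a Pearson r of 0.87, followed by UBE2NL at 0.86, UBE2CBP probes at 0.86 and 0.77, and a UBE2J2 probe at 0.69. As a description of how common this is, 2.15% of all tested probes had an r at or above that of UBE2L6 and 9.11% one at or above that of UBE2J2.

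E2s of cell division and DNA repair held 6 probes, of which 1 was above and 5 below control under paraoxon and all 6 below under mipafox, with log2 fold changes from −0.33 to 0.17 and from −0.21 to −0.01. None had an unadjusted p under 0.05. UBE2C and UBE2S start and lengthen the chains made by the anaphase-promoting complex, and UBE2T marks FANCD2 in the Fanconi anaemia repair pathway. UBE2A and UBE2B, the human RAD6 enzymes that work with RAD18 at stalled replication forks, complete the group.

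UBE2C read 4.54, 4.41 and 4.51 in control, 4.13, 4.18 and 4.54 with paraoxon, and 4.45, 4.37 and 4.43 with mipafox, for log2 fold changes of −0.20 (SE 0.14) and −0.07 (SE 0.14). UBE2S read 4.62, 4.39 and 4.30, then 4.32, 4.20 and 4.57, then 4.49, 4.46 and 4.32 in the same order, for −0.07 (SE 0.15) and −0.01 (SE 0.15). UBE2T read 4.25, 4.53 and 4.46 in control, 4.32, 4.19 and 4.40 with paraoxon, and 4.41, 4.29 and 3.90 with mipafox, for −0.11 (SE 0.17) and −0.21 (SE 0.17). In all 3 genes the groups overlapped. The 95% intervals for paraoxon reached no lower than −0.53 in UBE2C, −0.42 in UBE2S and −0.49 in UBE2T.

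Proliferation genes measured beside them were also uncalled. Of 16 probes for 12 such genes, 3 had an unadjusted p under 0.05 under paraoxon, all lower, which is 18.8% where all tested probes gave 13.3%, and the median log2 fold change was −0.11. They were PLK1 at −0.69 and both probes of MKI67, which codes for the division marker Ki-67, at −0.63 and −0.50, and under mipafox their values were −0.11, −0.67 and −0.49. In bulk RNA, fewer dividing cells and less of these RNAs per cell cannot be told apart.

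Chain-building E2s and their inactive partners held 7 probes, 5 above and 2 below control in each treatment. UBE2N builds chains that serve signalling and repair, with UBE2V1 or UBE2V2 as a partner that has no active cysteine. UBE2N read 0.08, 0.14 and 0.16 in control, 0.13, 0.12 and 0.31 with paraoxon, and 0.02, 0.27 and 0.60 with mipafox, with overlap and log2 fold changes of 0.06 (SE 0.16) and 0.17 (SE 0.16). The remaining members are UBE2K, UBE2R2, a CDC34 relative that serves cullin ligases, and UBE2G1, and the values of the whole group lay between −0.42 and 0.26.

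UBE2V1 had 1 of the 5 E2 probes with an unadjusted p under 0.05 in paraoxon against control. Its upstream probe, A_23_P11461, read 2.52, 2.42 and 2.31 in control, 1.97, 1.76 and 2.25 with paraoxon, and 2.30, 2.19 and 1.91 with mipafox. All treated arrays lay below all control arrays, although mipafox A only just. The log2 fold change was −0.42 under paraoxon (SE 0.17, 95% interval −0.81 to −0.04, adjusted p by limma 0.327) and −0.28 under mipafox (SE 0.17, 95% interval −0.66 to 0.10). On slide 1 mipafox A minus control was −0.11, with slide as a block the paraoxon value was −0.17, and the downstream probe stood at 0.14 under paraoxon.

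E2s with a broad range of partner ligases made up the largest group, 12 probes of UBE2D1 to UBE2D4, UBE2E1 to UBE2E3 and UBE2W, with 9 below control under paraoxon and 8 under mipafox. Log2 fold changes ran from −0.36 to 0.08 and from −0.63 to 0.34. The lowest was UBE2W, an E2 that attaches ubiquitin to the amino terminus of proteins. Its upstream probe, A_24_P346604, read −2.72, −2.44 and −2.30 in control, −3.07, −2.25 and −3.22 with paraoxon, and −3.20, −3.38 and −2.78 with mipafox.

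The mipafox arrays of UBE2W lay below all control arrays, while paraoxon B was above them all. Its log2 fold change was −0.63 under mipafox (SE 0.27, 95% interval −1.24 to −0.03, limma p 0.0423, adjusted 0.697) and −0.36 under paraoxon (SE 0.27, 95% interval −0.97 to 0.24). Within slide 1 mipafox A was below control by 0.71, a difference of −0.71. The downstream UBE2W probe was 0.42 closer to control than the upstream one under mipafox.

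E2s of the endoplasmic reticulum, UBE2G2, UBE2J1 and UBE2J2, serve the degradation of misfolded secretory proteins. Their 4 probes lay between −0.23 and 0.06 under paraoxon and between −0.05 and 0.18 under mipafox. No unadjusted p was under 0.05.

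Among the remaining ubiquitin E2s, 7 probes were tested, with values from −0.30 to 0.28 under paraoxon and from −0.13 to 0.38 under mipafox. They belong to UBE2H, UBE2L3, which works with HECT ligases and parkin, UBE2O, which is E2 and E3 in 1 protein, UBE2Q1, UBE2Q2 and UBE2QL1. UBE2Q1 read 0.03, 0.12 and 0.08 in control, 0.44, 0.35 and 0.28 with paraoxon, and 0.26, 0.48 and 0.42 with mipafox. All treated arrays lay above all control arrays. Its log2 fold change was 0.28 under paraoxon (SE 0.13, 95% interval −0.01 to 0.56, limma p 0.0537, adjusted 0.385) and 0.31 under mipafox (SE 0.13, 95% interval 0.03 to 0.59, limma p 0.0347, adjusted 0.677). On slide 1 mipafox A was 0.19 above control, and between slides mipafox B and C were 0.19 above mipafox A. With slide as a block the paraoxon value was 0.093 and the mipafox value 0.19.

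UBE2QL1, a relative of UBE2Q1, was dim, at −4.73, −5.27 and −5.19 in control, −4.78, −4.87 and −5.29 with paraoxon, and −4.89, −4.83 and −4.35 with mipafox. The groups overlapped. The log2 fold changes were 0.09 (SE 0.22), which turned to −0.02 with normexp background correction and −0.21 with slide as a block, and 0.38 (SE 0.22, 95% interval −0.12 to 0.87).

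Copies and pseudogenes of E2 genes gave 3 of the 5 E2 probes with an unadjusted p by limma under 0.05 under paraoxon. Within this group they are 3 of 7 tested probes, where all tested probes gave 13.3%. The group is too small for these shares to be compared. The 3 are UBE2NL, UBE2Q2P2 and UBE2Q2P3, of which the last pair shares 1 RefSeq symbol. The group has 7 tested probes, UBE2DNL, UBE2E4P, UBE2MP1, UBE2NL, UBE2Q2P1, UBE2Q2P2 and UBE2Q2P3, with 2 above and 5 below control under paraoxon. Probes for such copies can bind RNA of the parent gene, and the array gives no measure of it. The UBE2E4P probe was placed by the files on chromosome 2 beside a UBE2E3 probe, while RefSeq has the gene on X, so what it detects is uncertain.

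The pseudogene probes UBE2Q2P2 and UBE2Q2P3, which share 1 RefSeq symbol, were the highest of the family under paraoxon. UBE2Q2P2 read −5.33, −4.77 and −4.84 in control, −4.50, −4.03 and −4.33 with paraoxon, and −5.26, −4.69 and −4.52 with mipafox. UBE2Q2P3 read −3.62, −3.46 and −3.83 in control, −3.16, −2.86 and −2.95 with paraoxon, and −4.10, −3.38 and −3.32 with mipafox. In both, every paraoxon array lay above every control and mipafox array, and mipafox A lay below mipafox B and C.

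Against control UBE2Q2P2 differed by 0.70 under paraoxon (SE 0.24, 95% interval 0.16 to 1.23, adjusted p by limma 0.245) and by 0.16 under mipafox (SE 0.24), on the log2 scale. UBE2Q2P3 differed by 0.65 (SE 0.22, 95% interval 0.15 to 1.15, adjusted p by limma 0.243) and by 0.04 (SE 0.22). These values moved with the slide. Between slides, mipafox B and C were above mipafox A by 0.65 for UBE2Q2P2 and 0.75 for UBE2Q2P3, close in size to the paraoxon differences, and within slide 1 mipafox A minus control was −0.28 and −0.46. For UBE2Q2P2 the paraoxon value was 0.37 with normexp and 0.35 with the authors' values. With slide as a block the paraoxon values were 0.04 and −0.10, so that slide and paraoxon cannot be told apart here. Slide 1 holds only 1 mipafox array, so a difference between slides and one of mipafox A alone cannot be told apart either. The parent gene's probe, UBE2Q2, lay within the range of its group given above.

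UBE2NL, an intronless relative of UBE2N that RefSeq lists as a pseudogene, was below control in both treatments. It read −0.48, −0.31 and −0.22 in control, −0.89, −0.52 and −1.16 with paraoxon, and −0.90, −1.03 and −0.79 with mipafox. No treated array reached the lowest control array. Its log2 fold changes were −0.52 (SE 0.18, 95% interval −0.92 to −0.12, adjusted p by limma 0.249) and −0.57 (SE 0.18, 95% interval −0.98 to −0.17, adjusted p by limma 0.523). This was as large within slide 1, where mipafox A minus control was −0.56, and between slides the mipafox arrays B and C minus A gave −0.02. The UBE2N probe itself stood at 0.06 and 0.17.

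**Figure D1:**
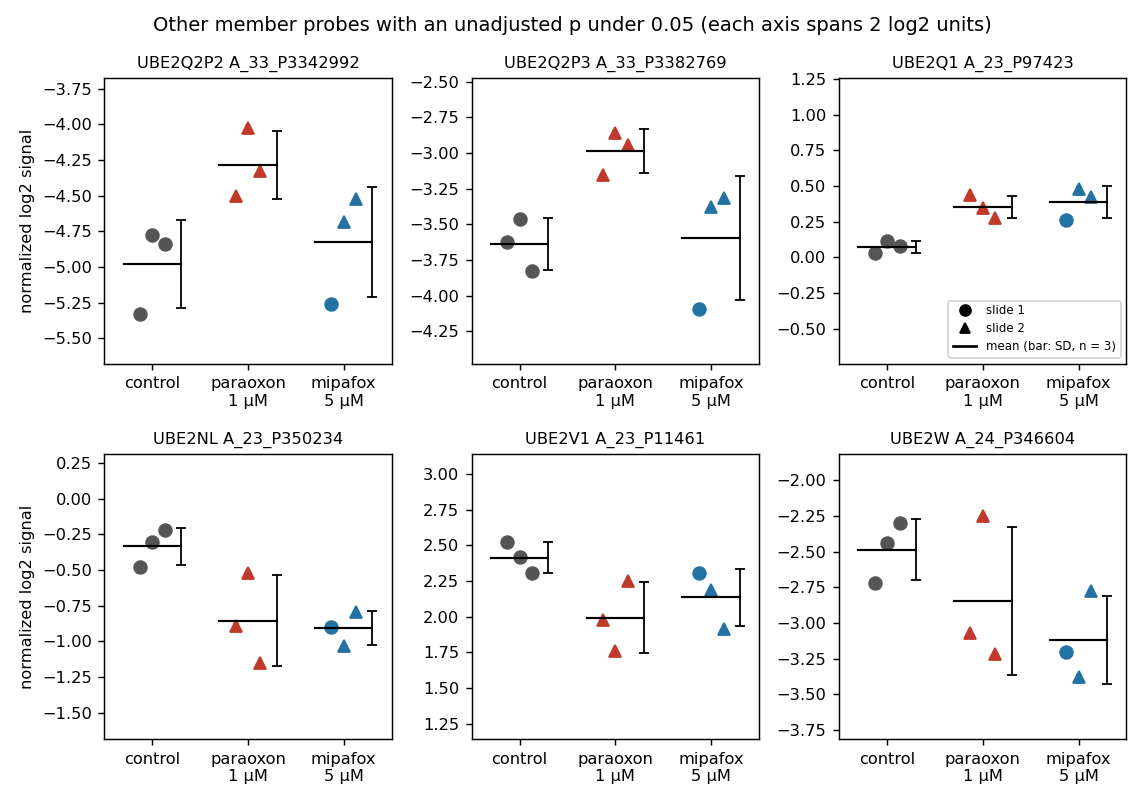
Normalized log2 signal on each array of the 6 E2 probes other than UBE2Z with an unadjusted p under 0.05 in either treatment, each on an axis of 2 log2 units; circles are slide 1, triangles slide 2, and lines and bars give the mean and SD of 3 arrays. For UBE2Q2P2 and UBE2Q2P3 mipafox A (circle) lies below mipafox B and C, while for UBE2NL the 3 mipafox arrays lie together at −0.90, −1.03 and −0.79.

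Counts of probes whose arrays did not overlap stand beside those of all probes. Under paraoxon, 3 of 52 E2 probes had every paraoxon array above every control array, or 5.77% where 12.4% of all probes did so, and 9 had every paraoxon array below, or 17.3% beside 11.1%. Under mipafox these counts were 3 above, 5.77% beside 5.34%, and 6 below, 11.5% beside 6.46%. The 3 control arrays are common to both comparisons. Shares over all probes are not given for both treatments on the same side of control, nor for paraoxon against mipafox. How common those patterns are on the array is therefore left unstated.

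Paraoxon and mipafox differ in dose as well as in compound, so their values stand side by side without attribution to either. Of 52 E2 probes, 19 were higher and 33 lower with paraoxon than with mipafox, with a median log2 difference of −0.091 where all probes gave 0.014, and values above mipafox were 36.5% where all probes gave 52.5%. Only the pseudogene probes UBE2Q2P2, at 0.54 (95% interval 0.00 to 1.07), and UBE2Q2P3, at 0.61 (95% interval 0.11 to 1.11), had an unadjusted p under 0.05. For the upstream UBE2Z probe the difference was −0.47 (95% interval −1.04 to 0.09), and without paraoxon C it was −0.16. The adjusted p by limma was 0.998 for each of the 3.

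The wider pathway was measured with 159 tested probes of 109 genes, from a list of 112 that holds E1 enzymes, ubiquitin and its relatives, and E3 ligases and partners of the E2s above. None passed the test in either treatment. Under paraoxon 5 probes were higher and 9 lower at an unadjusted p under 0.05, and under mipafox 4 and 5. These are 8.81% and 5.66% of the probes, where all tested probes gave 13.3% and 6.96%. Directions were mixed, with 72 probes above and 87 below control under paraoxon.

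By partner of the E2s, SEL1L, an anchor of the endoplasmic reticulum degradation complex, stood at 0.63 under paraoxon and 0.25 under mipafox. FANCD2, the protein that UBE2T marks, stood at −0.52 and −0.79. The adjusted p by limma under paraoxon was 0.162 and 0.202. AUP1, listed with SEL1L, stood at −0.46 under paraoxon. Of the probes listed with SEL1L 8 were above and 7 below control under paraoxon, and of those listed with FANCD2 9 and 9. The ligase UBE3A stood at −1.13, with a standard error of 0.45, on a dim probe that was not above background on every array. Its value was −0.24 with normexp and −0.33 with the authors' values, and ran from −1.52 to −0.66 with an array left out. PIAS4, a SUMO ligase, again had probes that differed, A_33_P3211174 at −0.80 and A_24_P48627 at 1.06 (adjusted p by limma 0.256 and 0.101). The second was called with array weights, at 1.13 under paraoxon and 1.29 under mipafox, and under paraoxon also in fits without mipafox A, without mipafox B or without all mipafox arrays, at 1.06 each. With slide as a block it was 0.38 and 0.41, and with normexp 0.75 and 0.66, and neither was called.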

How the data were processed

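The authors hybridised Cy3-labelled RNA to 1-colour Agilent whole human genome arrays of 60-base probes. They deposited, for each of the 9 arrays, the spot intensity values of Agilent Feature Extraction 10.5.1.1, and a table of their processed values for 29527 probes on a log2 scale, normalized and filtered in R with the Bioconductor package Agi4x44PreProcess. The exact method and settings are not given in the sources used here. Its direction and scale were checked against the scanner values (correlation 0.980 to 0.986 per array, column medians 8.35 to 8.41), and it served as an alternative.

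Spots of 1 probe were averaged after outlier spots were left out. The log2 processed signal was scaled to each array's 75th percentile. A probe was tested if, on each array of any 1 treatment, at least 0.5 of its spots were flagged well above background, with at least 2 values per treatment. One model over 9 arrays, with a mean per treatment, was fitted with limma 3.58.1 in R 4.3.3 and tested on simulated data first. A call needed a Benjamini-Hochberg adjusted p under 0.05 over all tested probes and a log2 fold change beyond 1. The number of arrays, and for dim probes the background, limit the precision.

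Slides were read from the slide identifiers of the deposited scanner files. Per-array values are given for UBE2Z, for E2 probes with an unadjusted p under 0.05 in either treatment, for genes whose probes differ by over 1, and for UBE2C, UBE2S, UBE2T, UBE2M, UBE2N, UBE2L6 and UBE2QL1. Of other lists, genes with an unadjusted p under 0.05 under paraoxon could be named. Members, lists and tests were chosen with earlier results of these data known. Alternatives were quantile normalization, normexp background correction with offset 50, the authors' values, other filters on dim probes, a slide block, a replicate block, array weights, 2 treatments alone, outlier spots kept, other thresholds and each array left out. Names were compared with RefSeq's GRCh38.p14 table, from which no coordinates were taken. The values of 1 gene are not reported here, though its probe is in the counts over the family.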

Additional observations from a re-analysis of the deposited data

How the results depend on the processing

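The count of called E2 probes was 0 in all 3 comparisons under every alternative run except 2. With array weights it was 1 under paraoxon and 1 under mipafox, the upstream UBE2Z probe in both, and at an unadjusted p under 0.05 with the fold limit it was 1 under paraoxon, the same probe. The weights depend on the order of the probes, so counts of calls made with them can vary. Leaving out arrays gave counts of 0 to 0. The median of the family under paraoxon was −0.092 with array weights and −0.077 to −0.047 with an array left out. Under mipafox it was −0.031 with normexp, −0.032 with the authors' values, 0.0011 with the slide block and −0.071 to −0.0090 with an array left out. In paraoxon against mipafox it was −0.055 with the authors' values, −0.025 with the slide block and −0.091 to −0.025 with an array left out. Whether the letters A, B and C pair the arrays could not be settled from correlations of deviations from group means, since deviations within a group are tied to each other. Such correlations ran from −0.60 to 0.57 for same letters and from −0.59 to 0.66 for different letters. With the replicate block the medians were −0.067, −0.060 and −0.091, no E2 probe was called and the UBE2Z value was −1.35.

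Among single probes, 18 values changed sign in fits of all arrays, 15 of them smaller than their own standard error. With slide as a block, values under paraoxon were 0.21 for UBE2T, −0.36 for UBE2N, −0.10 for UBE2Z A_23_P83438, −0.21 for UBE2QL1, 0.026 for UBE2S and −0.10 for UBE2Q2P3, and under mipafox −0.11 for UBE2N, 0.053 for UBE2S, −0.28 for UBE2Q2P2 and −0.46 for UBE2Q2P3. With array weights UBE2M was 0.016 under paraoxon and 0.13 under mipafox, UBE2Z A_23_P83438 −0.072 under paraoxon, UBE2S 0.072 under mipafox and UBE2L6 0.22 in paraoxon against mipafox. With the authors' values UBE2T was 0.046 under paraoxon and UBE2C 0.098 under mipafox, and with normexp UBE2QL1 was −0.023 under paraoxon. The cause was not tested.

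With an array left out, sign changes were seen under paraoxon for UBE2N (−0.0027 to 0.093), UBE2QL1 (−0.019 to 0.26) and UBE2S (−0.18 to 0.019). Under mipafox they were seen for UBE2M (−0.13 to 0.084), UBE2Z A_23_P83438 (−0.26 to 0.019), UBE2S (−0.082 to 0.078), UBE2Q2P2 (−0.018 to 0.38) and UBE2Q2P3 (−0.099 to 0.29). In paraoxon against mipafox they were seen for UBE2T (−0.049 to 0.21), UBE2N (−0.25 to 0.040), UBE2NL (−0.11 to 0.20), UBE2L6 (−0.28 to 0.19), UBE2Q1 (−0.095 to 0.012), UBE2W (−0.025 to 0.46) and UBE2S (−0.16 to 0.021). Probes near −5, such as UBE2QL1 and UBE2Q2P2, lie close to background, which limits their precision, and 3 arrays a group limit all of them. The upstream UBE2Z probe neared that range on paraoxon C, at −4.52.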
